A study of Rattus norvegicus with 12 samples.

Results

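In OC1 cells, 95 genes had lower mRNA levels with each of 2 siRNAs against Bcl-2 than with a control siRNA. They were chosen by their own levels, out of 23978 genes in the table. Levels are in CPM, the count of a gene divided by the total of its library and multiplied by 1000000. A gene was kept if its mean over the 12 libraries was at least 10 CPM and the log2 ratio of the mean of each siRNA to the control mean was -0.3 or lower. Every library of both siRNAs also had to lie below every control library. Of 9567 genes that reached 10 CPM, 715 met the ratio for siRNA 1928, 321 met it for siRNA 1423 and 105 met both. The separation held for 98 of the 105, and 3 of the 98 were left out by the rule and are not described here. Since these values chose the genes, the ratios to control below are a description and carry no test.

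The groups were siRNA 1928, siRNA 1423 and control siRNA, with 4 libraries each, named A to D. The labels give the genotype of the first 2 groups as Bcl-2 knockdown and that of the control as wild type. All cells belonged to the single line OC1, labelled as rat sensory epithelium of the cochlea, were grown in DMEM with serum, received siRNA with a lipid reagent and were detached with trypsin. Whether OC1 is the line HEI-OC1, which is of mouse origin, is not given in the sources used here. Counts were assigned to rat genes in either case, and the species of the reads was not tested. The labels also carry a plasmid transfection tag on all 12 samples, the controls included, which conflicts with their siRNA protocol. The time between transfection and harvest is not given in the sources used here, nor whether the replicates were separate cultures, so p-values measure only the spread between these libraries, which may be technical. Library totals ran from 15671546 to 23247593 expected counts, which are estimated read counts that need not be whole. The chi-square per degree of freedom between counts of libraries from 1 group was 1.93 to 5.89 over 18 pairs, above the level of sampling noise, and each library was counted as its own sample.

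Bcl-2 is the founding member of a protein family that controls apoptosis, and it sits in the outer mitochondrial membrane, where it restrains the pore-forming proteins BAX and BAK. It also binds proteins at the endoplasmic reticulum. An siRNA directs cleavage of mRNA with a fully matching sequence, and it can also lower other mRNAs that match only its seed, which is why studies commonly use several siRNAs against the same target and look for shared changes. The table names genes by Ensembl ID alone. The reference table of rat genes at hand held no Ensembl IDs, so 0 of these IDs could be matched to it. The genes are therefore not given symbols or roles here, and the level of Bcl2, markers of cochlear cells, pathway lists and promoter sequences were not analysed. The 2 genes with the lowest mean log2 ratio over both siRNAs are given by ID, and the others by their rank.

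Most decreases were less than 1.5-fold, and the median decrease was larger with siRNA 1928. With siRNA 1928 the log2 ratio to control had a median of -0.55 over the 95 genes, with quartiles of -0.78 and -0.40 and a lowest value of -1.41. With siRNA 1423 the median was -0.39, the quartiles -0.53 and -0.33 and the lowest value -0.95. As a share of the control level, the median was 68.4% with siRNA 1928 and 76.1% with siRNA 1423. A decrease of at least 1.5-fold was seen in 38 genes with siRNA 1928, in 17 with siRNA 1423 and in 15 with both. A decrease of 2-fold was reached by 7 genes with siRNA 1928 and by 0 with siRNA 1423. In 17 genes both ratios were above -0.4, so these lay close to the threshold. In a bulk sample, fewer cells that express a gene and less mRNA per cell cannot be told apart.

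**Figure D1:**
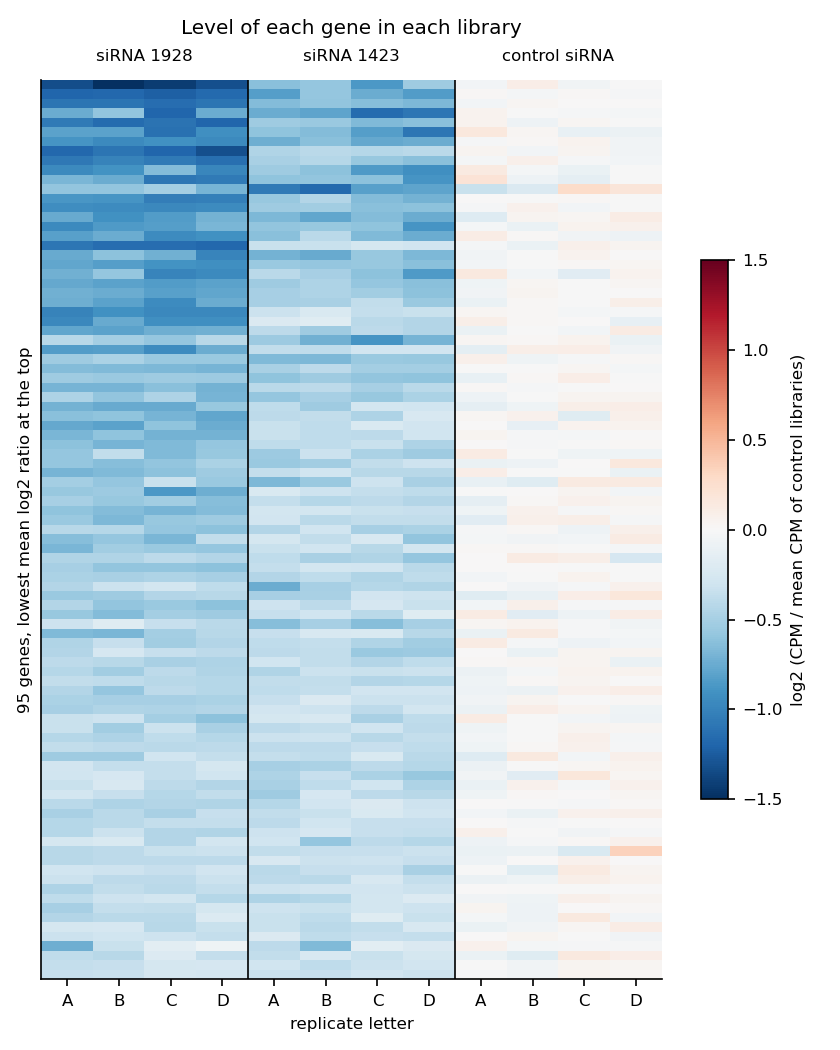
Each row is 1 of the 95 genes and each column 1 library, with color for the log2 of its CPM over the mean CPM of the 4 control libraries (blue is lower). All columns of siRNA 1928 and siRNA 1423 lie below the control columns in every row, as the rule demands, and most of the top rows are darker with siRNA 1928.

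The gap between the groups varied widely from gene to gene. Measured as the log2 of the lowest control library over the highest siRNA library, it had a median of 0.21 and ran from 0.016 to 0.58. It was under 0.1 in 9 genes and at least 0.3 in 29. The 3 genes just inside the ratio threshold of siRNA 1928 had log2 ratios of -0.3005, -0.301 and -0.3012, and the 3 just outside had -0.299, -0.289 and -0.285. At the threshold of siRNA 1423 the 3 inside had -0.3003, -0.3008 and -0.302, and the 3 outside -0.295, -0.2928 and -0.2926. At the CPM floor the 3 lowest genes kept had means of 10.3, 10.7 and 10.9 CPM, and the next 3 genes, which met every other condition, had 9.80, 9.67 and 9.46 CPM. No break in the values marked the edges of the list.

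The lowest mean ratio belonged to ENSRNOG00000002826. It had 10.3, 8.48, 9.64 and 10.3 CPM with siRNA 1928, 16.7, 17.2, 14.3 and 17.8 CPM with siRNA 1423, and 25.1, 27.6, 24.99 and 25.7 CPM with the control siRNA. The 3 groups did not overlap, with siRNA 1928 lowest and siRNA 1423 in between. Its log2 ratio to control with siRNA 1928, -1.41, was the lowest of the 95 genes, and that with siRNA 1423 was -0.65.

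The next was ENSRNOG00000057814, with 40.3, 40.6, 39.03 and 40.8 CPM with siRNA 1928, 51.5, 61.0, 54.7 and 51.1 CPM with siRNA 1423, and 93.0, 90.1, 92.8 and 90.4 CPM with the control siRNA. The order of the groups was the same, again without overlap, and the libraries of siRNA 1928 lay closer together than those of siRNA 1423 (SD of 0.798 and 4.59 CPM, n = 4 each). Its log2 ratios were -1.19 with siRNA 1928 and -0.75 with siRNA 1423.

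The gene with the third lowest mean ratio also had the second highest mean CPM of the list. It had 637, 636, 616 and 635 CPM with siRNA 1928, 868, 899, 875 and 849 CPM with siRNA 1423, and 1321, 1382, 1367 and 1362 CPM with the control siRNA, and no group overlapped another. Its log2 ratio to control was -1.11 with siRNA 1928 and -0.64 with siRNA 1423. No clear order of the siRNAs was seen in the gene with the fourth lowest mean ratio, which had few reads. It had 9.29, 10.3, 6.86 and 9.30 CPM with siRNA 1928, 9.31, 9.003, 6.99 and 7.35 CPM with siRNA 1423, and 16.3, 15.5, 15.4 and 15.3 CPM with the control siRNA. Both siRNA groups overlapped each other and lay well under the control libraries, with log2 ratios of -0.80 for siRNA 1928 and -0.94 for siRNA 1423. A graded order returned in the gene with the fifth lowest mean ratio, with 35.4, 33.2, 34.3 and 32.3 CPM with siRNA 1928, 51.3, 50.5, 46.9 and 47.8 CPM with siRNA 1423, and 76.7, 70.3, 75.4 and 73.9 CPM with the control siRNA. The 15 genes with the lowest mean ratio had log2 ratios of -1.41 to -0.60 with siRNA 1928 and of -0.95 to -0.42 with siRNA 1423, and their means ran from 10.9 to 954 CPM.

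**Figure D2:**
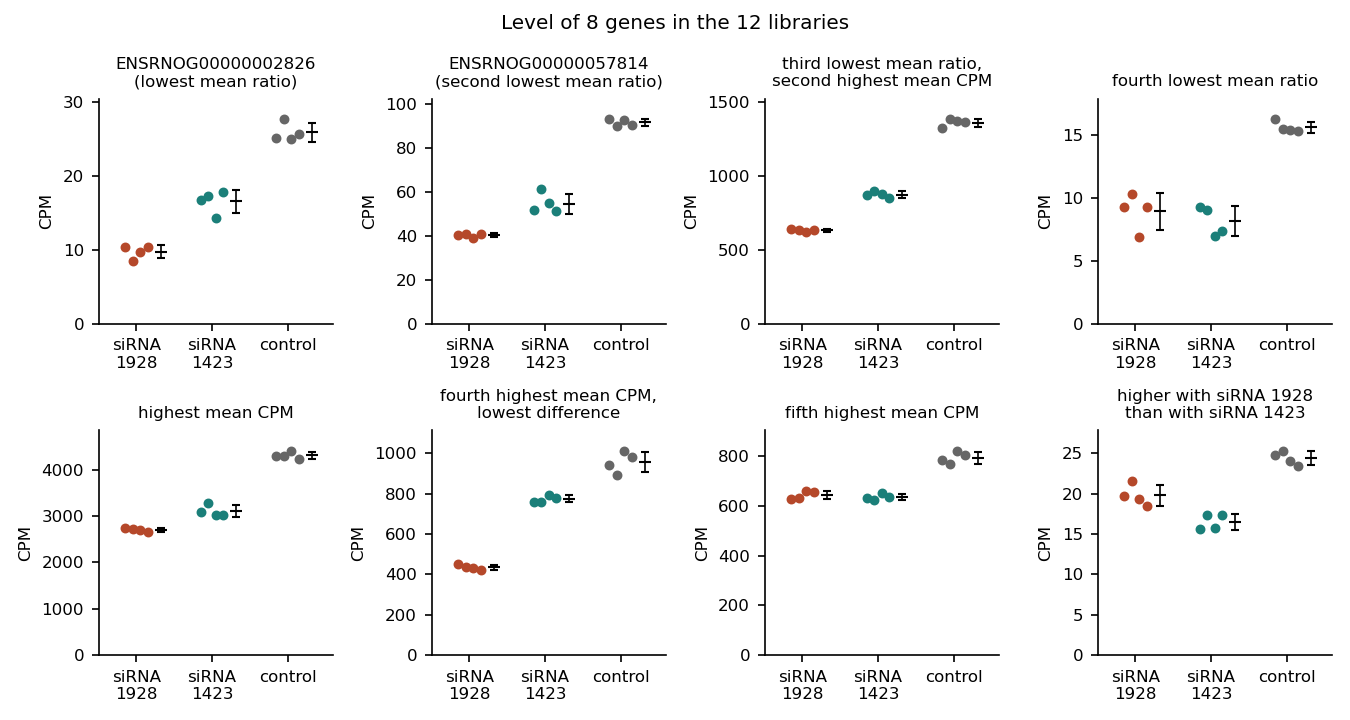
CPM of 8 of the genes in the 12 libraries, with 1 point per library and a black bar for mean ± SD (n = 4). The siRNA groups overlap in the gene with the fourth lowest mean ratio and in the one with the fifth highest mean CPM, and the groups stand apart in the other panels.

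Genes with many reads were part of the list. CPM are not divided by gene length, so an order by CPM is an order of reads and not of transcripts. The gene with the highest mean CPM ranked 10 among all genes of the table by that measure. It had 2748, 2729, 2696 and 2649 CPM with siRNA 1928, 3084, 3290, 3019 and 3028 CPM with siRNA 1423, and 4295, 4306, 4410 and 4226 CPM with the control siRNA. Each group stood apart, with log2 ratios of -0.67 for siRNA 1928 and -0.47 for siRNA 1423. The order was the same in the gene with the third highest mean CPM, at 654, 635, 620 and 638 CPM with siRNA 1928, 766, 803, 745 and 717 CPM with siRNA 1423, and 1066, 1135, 1111 and 1132 CPM with the control siRNA. It was not in the gene with the fifth highest mean CPM, at 627, 631, 660 and 656 CPM with siRNA 1928, 631, 624, 651 and 636 CPM with siRNA 1423, and 783, 766, 821 and 803 CPM with the control siRNA. Its siRNA groups overlapped, and its log2 ratios were -0.30 for siRNA 1928 and -0.32 for siRNA 1423.

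Together the 95 genes took 1.11 ± 0.00514% of the counts with siRNA 1928, 1.31 ± 0.0232% with siRNA 1423 and 1.79 ± 0.0231% with the control siRNA (SD, n = 4 each). The share lay between 1.108 and 1.119% in the libraries of siRNA 1928, between 1.28 and 1.34% in those of siRNA 1423 and between 1.76 and 1.82% in the control libraries. Without the gene of highest CPM the summed levels were 8427 ± 16.3 CPM with siRNA 1928, 9954 ± 120.3 CPM with siRNA 1423 and 13611 ± 196 CPM with the control siRNA, so the order did not rest on that gene. The difference of these sums to control follows from the rule.

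**Figure D3:**
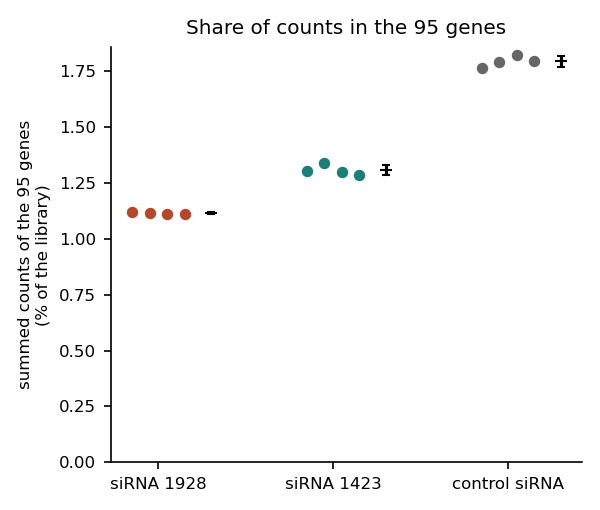
Summed counts of the 95 genes as a percentage of the library, with 1 point per library and a black bar for mean ± SD (n = 4). The libraries of siRNA 1928 sit lowest, near 1.11%, those of siRNA 1423 near 1.31% and the control libraries near 1.79%.

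The order of the 2 siRNAs was not a condition of the rule, but the rule used these same libraries to choose the genes. The order was tested in a fit over all 12731 genes with enough counts. For the 95 genes this test is not independent of their choice, whereas the shares over all genes come without that choice. Setting siRNA 1928 against siRNA 1423 compares the size of the decrease in genes kept because both siRNAs lowered them. It cannot show how far the 2 siRNAs gave the same result, since genes lowered by only 1 of them were left out beforehand. Of the 95 genes, 57 (60%) were lower with siRNA 1928 than with siRNA 1423, 1 was higher and 37 did not pass (edgeR quasi-likelihood test, adjusted p under 0.05 over all genes tested). Among all genes tested 23.0% were called lower and 21.3% higher, and among the 9567 genes of 10 CPM or more 28.4% were lower and 22.4% higher. The median log2 difference of siRNA 1928 minus siRNA 1423 was -0.19 in the 95 genes, against -0.014 in the genes of 10 CPM or more and 0.0036 in all genes tested. The difference was negative in 84 of the 95, in 5067 of the 9567 genes of 10 CPM or more and in 6286 of all 12731. In 41 of the 95 genes (43.2%) every library of siRNA 1928 lay below every library of siRNA 1423, and in 4 every library lay above, where the shares among genes of 10 CPM or more were 17.9% and 30.4%. The shares of separated libraries use CPM on library totals, whereas the fit scales counts by trimmed means (TMM), whose factors averaged 1.03 with siRNA 1928 and 0.984 with siRNA 1423.

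These counts moved with the scaling. With library size alone 45 of the 95 genes were lower (47.4%) and 4 higher, with 16.0% of all genes tested lower and 31.6% higher. Over all genes, the higher calls made up 48.1% of 5645 with TMM and 66.4% with library size alone, and the median difference was 0.0036 with TMM and 0.066 with library size alone. The fit cannot be read as wholly independent of the choice of genes. More genes passed the threshold of siRNA 1928 (715) than that of siRNA 1423 (321), and the part of this in the 57 calls was not tested. By the mirrored rule 58 genes were higher with both siRNAs. Of these, 12 (20.7%) were higher and 6 (10.3%) lower with siRNA 1928 than with siRNA 1423. Among genes of 10 CPM or more 22.4% were higher and 28.4% lower. The median log2 difference of the 58 genes was 0.014. The difference between both lists was not tested.

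**Figure D4:**
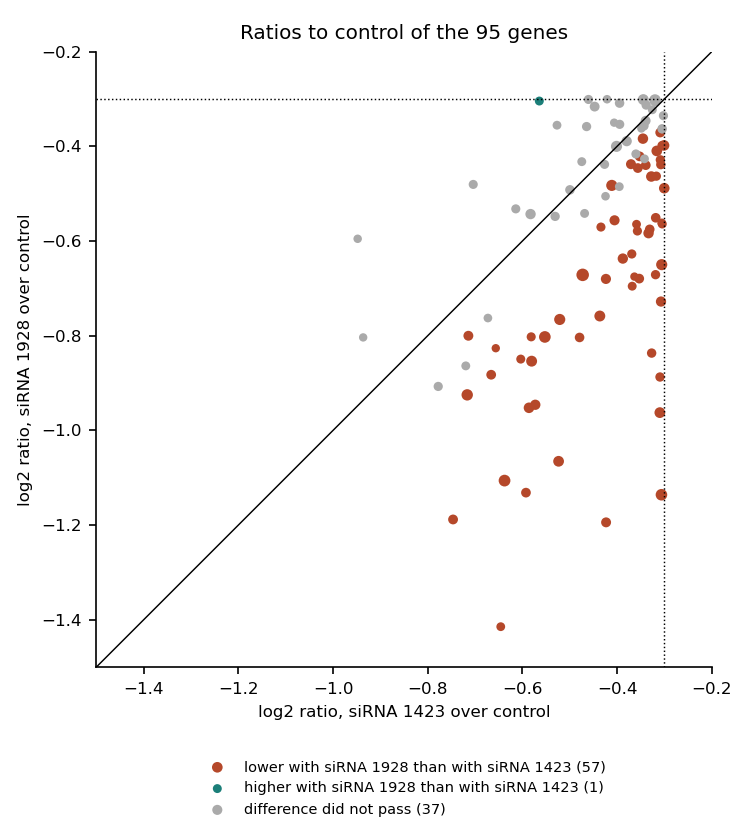
Log2 ratio to control with siRNA 1928 (vertical) and siRNA 1423 (horizontal) for the 95 genes, with larger points for higher mean CPM, the line of equal ratios and dotted lines at the threshold of -0.3. The 57 genes called lower with siRNA 1928 lie under the line, and the single gene called higher lies above it, against the upper edge.

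Of the 5 genes with the lowest difference, 3 only just met the threshold of siRNA 1423, with log2 ratios of -0.31. At the head stood the gene with the fourth highest mean CPM, with 452, 434, 433 and 421 CPM with siRNA 1928, 761, 759, 795 and 780 CPM with siRNA 1423, and 941, 892, 1012 and 982 CPM with the control siRNA. Its log2 difference of siRNA 1928 minus siRNA 1423 was -0.89 (SE 0.035, edgeR adjusted p = 5.73e-15), with all 4 libraries of siRNA 1928 below all 4 of siRNA 1423. Its log2 ratio to control was -1.14 with siRNA 1928 and -0.31 with siRNA 1423. Levels of the gene with the second lowest difference were 42.9, 45.5, 42.5 and 39.1 CPM with siRNA 1928, 71.0, 73.7, 72.0 and 73.4 CPM with siRNA 1423, and 100.2, 94.7, 100.2 and 93.9 CPM with the control siRNA. It differed by -0.84 (SE 0.042, edgeR adjusted p = 4.86e-13), likewise without overlap.

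ENSRNOG00000002826 came next, with a log2 difference of -0.82 (SE 0.083, edgeR adjusted p = 4.27e-08). The gene with the fourth lowest difference had 146, 156, 149 and 149.8 CPM with siRNA 1928, 234, 249.7, 229 and 232 CPM with siRNA 1423, and 299.6, 295, 286 and 290.3 CPM with the control siRNA. Its difference was -0.72 (SE 0.032, edgeR adjusted p = 5.85e-14). In the gene with the fifth lowest difference there were 22.4, 25.7, 23.0 and 23.1 CPM with siRNA 1928, 37.4, 38.4, 32.8 and 32.1 CPM with siRNA 1423, and 46.4, 44.0, 43.8 and 40.1 CPM with the control siRNA. It differed by -0.64 (SE 0.064, edgeR adjusted p = 3.64e-08), and its highest siRNA 1423 library lay only slightly under its lowest control library. In all 3 genes the libraries of siRNA 1928 were below every library of siRNA 1423.

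In the other genes described above that passed, the differences between the siRNAs were smaller. They were -0.50 (SE 0.048) in ENSRNOG00000057814, -0.53 (SE 0.026) in the gene with the third lowest mean ratio and -0.60 (SE 0.045) in that with the fifth lowest. The edgeR adjusted p-values were 1.63e-08, 3.28e-13 and 4.2e-10. The genes with the highest and the third highest mean CPM differed by -0.26 (SE 0.027, edgeR adjusted p = 6.04e-08) and -0.31 (SE 0.032, edgeR adjusted p = 4.75e-08). In each of these 5 genes all 4 libraries of siRNA 1928 lay below all 4 of siRNA 1423. Of the 15 genes with the lowest mean ratio, 11 were called lower with siRNA 1928 and 4 did not pass, where 60% of the list and 28.4% of the genes of 10 CPM or more were called lower. The mean ratio that picked these 15 includes the ratio of siRNA 1928, so nothing is read from that count.

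A single gene was called higher with siRNA 1928 than with siRNA 1423. It had 19.7, 21.6, 19.3 and 18.5 CPM with siRNA 1928, 15.6, 17.4, 15.7 and 17.3 CPM with siRNA 1423, and 24.8, 25.3, 24.0 and 23.5 CPM with the control siRNA. The groups did not overlap, with siRNA 1423 lowest. Its log2 difference of siRNA 1928 minus siRNA 1423 was 0.19 (SE 0.064, 95% interval 0.061 to 0.33, edgeR adjusted p = 0.0178). This call held in replicates A and B alone (0.25, edgeR adjusted p = 0.0486) and was lost in C and D alone (0.14, edgeR adjusted p = 0.255). With 1 library left out, it was lost without replicate A of siRNA 1423 (0.17), its replicate C (0.17) or replicate B of siRNA 1928 (0.16). The count of genes called higher was then 1, 0 and 0, and it was 2 without replicate C of siRNA 1928 or without replicate A or C of the control siRNA.

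The remaining 37 genes did not pass the test between the siRNAs, which does not show that both siRNAs lowered them equally. Their median log2 ratios to control were -0.39 with siRNA 1928 and -0.42 with siRNA 1423. Their median log2 difference was -0.056, with a range of -0.19 to 0.28. It was negative in 27 of the 37, where 5067 of the 9567 genes of 10 CPM or more were negative, called or not. The 95% interval of the difference stayed within -0.3 and 0.3 in 29 of them, and over all 37 the intervals reached from -0.38 to 0.55. For the gene with the fifth highest mean CPM the difference was -0.045 (95% interval -0.11 to 0.017, edgeR adjusted p = 0.234), and for the gene with the fourth lowest mean ratio 0.067 (-0.17 to 0.30, edgeR adjusted p = 0.669). Precision followed the level, since the median standard error was 0.075 in the 35 genes under 30 CPM, 0.052 in the 32 genes of 30 to 100 CPM and 0.033 in the 28 genes of 100 CPM or more. Called lower were 12 of the 35 genes under 30 CPM (34.3%), against 19.3% of all genes of 10 to 30 CPM. In the class of 30 to 100 CPM it was 23 of 32 (71.9%), against 28.7% of all genes in it, and at 100 CPM or more 22 of 28 (78.6%), against 38.7%. The share called thus rose with the level among all genes as well as in the list.

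**Figure D5:**
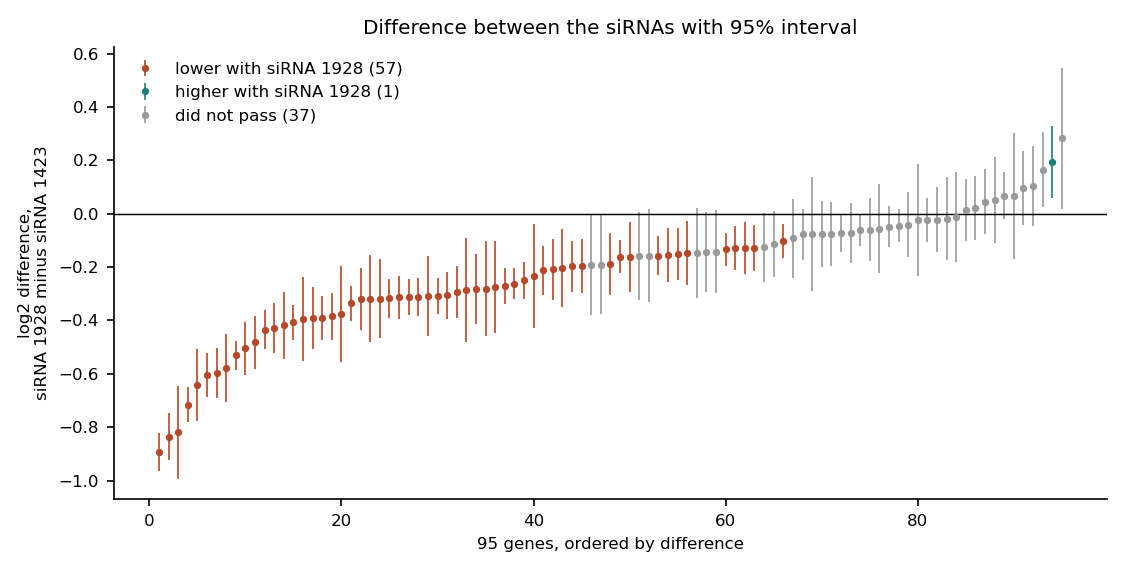
Log2 difference of siRNA 1928 minus siRNA 1423 for the 95 genes, ordered by size, with 95% intervals from the fit. Differences run from -0.89 to 0.28, with 57 genes called lower, 1 called higher and 37 that did not pass.

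The gene at the upper end of that plot, singled out after its values were seen, also had the largest coefficient of variation averaged over the 3 groups, 12.8%. It had 10.9, 10.9, 11.5 and 10.1 CPM with siRNA 1928, 7.88, 7.30, 9.36 and 9.47 CPM with siRNA 1423, and 13.0, 14.1, 19.8 and 18.6 CPM with the control siRNA. Control replicates C and D were higher than A and B, and the coefficient of variation was 5.15% with siRNA 1928, 12.7% with siRNA 1423 and 20.4% with the control siRNA. It held the lowest log2 ratio of siRNA 1423 to control, -0.95, and its difference between the siRNAs was 0.28 (95% interval 0.018 to 0.55, edgeR adjusted p = 0.0778), with all 4 libraries of siRNA 1928 above all 4 of siRNA 1423. A coefficient of variation of 10% or more in at least 1 group was seen in 18 of the 95 genes. The highest with siRNA 1423 (14.9%) and with siRNA 1928 (19.1%) were both in the gene ranked 13 by mean CPM. The coefficient of variation was under 10% in all 3 groups for 77 of the 95 genes and under 5% for 30. Its median was 4.62% with siRNA 1928, 4.58% with siRNA 1423 and 4.49% with the control siRNA, where the genes of 10 CPM or more had 4.17%, 4.25% and 4.44% in that order.

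The same rule was applied to replicates A and B alone, and the genes it kept were read in replicates C and D, which had no part in that choice. Whether the replicates were separate cultures is not given. These readings therefore cover only the spread between libraries, which may be technical, and may not be an independent repeat. It kept 95 genes, 70 of them in the list described here. In replicates C and D, all 95 were lower with siRNA 1928 than with the control siRNA and 93 were lower with siRNA 1423. Both ratios were again -0.3 or lower in 68 of the 95 (71.6%), against 1.30% of the genes of 10 CPM or more in these libraries. All libraries of both siRNAs lay below both control libraries in 85 (89.5%), against 14.3%. The median log2 ratio for siRNA 1928 was -0.55 in C and D and -0.53 in A and B, and for siRNA 1423 it was -0.39 in C and D and -0.40 in A and B.

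In the other direction the rule kept 117 genes from replicates C and D, 89 of them in the list. Read in replicates A and B, 117 were lower than control with siRNA 1928 and 116 with siRNA 1423, and both ratios were past the threshold in 65 (55.6%), against 1.02% of the genes of 10 CPM or more. Separation from the control libraries held in 109 (93.2%), against 12.9%. Here the medians were smaller in the libraries that had not chosen the genes, at -0.46 against -0.51 for siRNA 1928 and -0.34 against -0.42 for siRNA 1423. Both siRNAs are set against the same control libraries in each reading, so their ratios are not independent of each other.

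Apart from their levels the 95 genes were set beside the other genes in what else the table records. Their median mean level was 41.0 CPM, against 49.8 CPM in the genes of 10 CPM or more, with 36.8% under 30 CPM against 30.3%, and 29.5% at 100 CPM or more against 25.4%. Estimated counts that are not whole arise where a read is divided among features. All 12 counts were whole in 3 of the 95 genes (3.16%), against 3.46% of the genes of 10 CPM or more, and all 12 were fractional in 18 (18.9%), against 20.7%. The 5 genes with the highest mean CPM, which were described above, were among the 18. How their reads were shared with similar sequences was not analysed here, and their levels are uncertain to that extent.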

How the data were processed

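The authors deposited expected counts per Ensembl gene ID, 1 column per library. The unit was read from the values, of which 71.3% were whole to within 1e-06. The submitters' processing notes name bcl2fastq 2.20, fastp 0.21.0, DESeq2 1.24.0 and the build mRatBN7.2. The library protocol is strand-specific, while the aligner, the counting program and its strand setting are not given in the sources.

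Expected counts were rounded, filtered with filterByExpr (minimum count 10, minimum total 15), scaled by TMM and compared by quasi-likelihood in R 4.3.3 with edgeR 4.0.16 and limma 3.58.1, in 1 fit of the 3 groups to all 12 libraries. Benjamini-Hochberg adjustment ran over 12731 genes, and standard errors and 95% intervals come from the F statistic. CPM for the rule use library totals. Alternatives included DESeq2 1.42.0 and limma voom.

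The members, gene lists and comparisons were chosen with earlier results of these data known. Reading the genes of 1 pair of replicates in the other was added afterwards. The planned naming rule was to name, among others, the 15 genes with the lowest mean ratio, the 5 with the highest mean CPM and the 5 at each end of the called differences. Without symbols, IDs were printed for 2 genes, and values per library for those at ranks 1 to 5 of each part, of which only 1 gene was called higher, plus 1 further gene. Pathway and marker lists and promoter motifs could not be applied.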

Additional observations from a re-analysis of the deposited data

Results flagged for a closer look

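The siRNAs differed from each other in 57 genes that were lower and 1 that was higher with siRNA 1928 than with siRNA 1423, out of 95. Among genes of 10 CPM or more 28.4% were lower and 22.4% higher. The rule chose the genes in the same libraries, and 715 genes passed its threshold for siRNA 1928 against 321 for siRNA 1423. The part of this in the 57 calls was not tested. Among the genes described by their values, the log2 difference of siRNA 1928 minus siRNA 1423 passed the test in 11. It was -0.82 in ENSRNOG00000002826, -0.50 in ENSRNOG00000057814, -0.53 and -0.60 in the genes with the third and the fifth lowest mean ratio, and -0.26, -0.31 and -0.89 in the genes with the highest, the third highest and the fourth highest mean CPM. It was -0.84, -0.72 and -0.64 in the genes with the second, the fourth and the fifth lowest difference, and 0.19 in the gene called higher.

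A single library stood far from the others of its group. In the gene with the third lowest mean ratio, replicate C of siRNA 1928 had 616 CPM, while the other 3 libraries had 635 to 637 CPM. Of 51 groups of values searched in this way this was the only one picked out, and about 1 in 20 would be by chance. Wider gaps between libraries were present elsewhere in the list. The gene ranked 91 by mean CPM had 16.5 CPM in control replicate D, against 12.1, 12.2 and 11.1 CPM in control replicates A, B and C.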

How the results depend on the processing

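The number of genes lower with siRNA 1928 than with siRNA 1423, 57 of 95, stayed within 1.5 times under all 20 alternatives, at 45 to 57, and no called gene changed sign. Over all genes tested the share called lower moved too, from 16.0% with library size alone to 24.35% with the replicate block. The number higher, 1, was 4 with library size alone, 2 without a filter on low counts, 3 with the replicate block, 2 in replicates A and B alone, 0 in replicates C and D alone, 2 with only the 2 groups compared, and 0 to 2 when 1 library was left out. Whether the replicate letters pair the libraries was not settled. All 12 same-lettered pairs correlated positively in their deviations from the group means (0.030 to 0.134, 5 of them over 0.1). Not every library correlated best with its own letter. With the replicate block 57 of the 95 genes were lower. Of all genes tested, 24.35% were then lower and 22.9% higher, against 23.0% and 21.3% without the block. In both siRNA groups the chi-square per degree of freedom was lowest for A with B and C with D (1.93 to 2.43). In the control group this held for C with D alone, and the cause was not tested.

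The rule kept 146 genes at a log2 threshold of -0.25 and 39 at -0.4. It kept 96 on TMM-scaled CPM, 88 of them among the 95. Of the 37 differences that had not passed, 18 turned sign under at least 1 alternative, among them 11 with library size alone. That of the gene with the fifth highest mean CPM was 0.018 with library size alone, and that of the gene with the fourth lowest mean ratio was -0.0072 without replicate C of siRNA 1423 and -0.0012 without replicate B of siRNA 1928, in a range of -0.0072 to 0.18 over the libraries left out. The cause was not tested. Alternatives for the planned pathway lists were not run, since no gene could be assigned to them.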
